A study of Mus musculus with 6 samples.

Results

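The genes described here encode the machinery that places, removes and reads N6-methyladenosine (m6A), the most abundant internal base modification of messenger RNA. They were chosen by symbol, and all 10 listed genes were found once each among the 55401 gene rows of the table: the writer complex genes Mettl3, Mettl14, Wtap, Zc3h13 and Rbm15, the separate methyltransferase gene Mettl16, the eraser genes Alkbh5 and Fto, and the reader genes Ythdc1 and Ythdf2. Their RNA was measured in 129/Ola mouse embryonic stem cells whose ZFP207, a zinc finger protein studied here for its part in U1 snRNP function, is fused to an auxin-inducible degron (AID). That tag lets indole-3-acetic acid (IAA) send the tagged protein to the proteasome. The depleted group had 3 libraries from cells given IAA for 5 h, with a genotype label naming ZFP207 degradation, and the control group had 3 libraries at 0 h of IAA, with the genotype label WT. From their titles the controls were taken to be the same degron line. All 6 cultures grew in serum with leukemia inhibitory factor, and all libraries hold RNA labelled with 4-thiouridine (4sU), a uridine analogue that marks newly made transcripts, bound to streptavidin after biotinylation. How many degron clones there were and how long the 4sU pulse lasted is unstated in the labels. No degron-free cells with IAA were analysed here, so IAA and loss of ZFP207 cannot be told apart.

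In the cell nucleus a complex built around METTL3 and METTL14 methylates adenosines in nascent transcripts, and METTL16 does so on a few structured targets, among them U6 snRNA, the spliceosomal RNA that takes over the 5' splice site from U1. ALKBH5 and FTO can remove the methyl group, and proteins with a YTH domain bind it and pass the transcript to splicing, export or decay. In mouse embryonic stem cells m6A is known for shortening the life of pluripotency transcripts, so that cells without it leave the naive state poorly.

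The libraries held 14336811 to 23385133 counts in depleted cells and 17613103 to 25916628 in controls. Summed levels of 8 stem cell markers, all detected in every library, were 4247 to 4746 CPM (counts brought to a common total with TMM factors) in depleted cells and 3847 to 4405 CPM in controls. Sums for 6 feeder fibroblast markers were 2.88 to 4.47 CPM in depleted cells and 2.49 to 8.94 CPM in controls, with Col3a1, Postn and Lum at 0 in all 6 libraries, and sums for 6 primitive endoderm markers were 7.89 to 9.07 CPM in depleted cells and 4.04 to 8.40 CPM in controls. On the first principal component (32.4% of the variance) the replicate 2 libraries stood at 31.9 in depleted cells and 83.5 in controls, and the other 4 libraries lay below 0. Fold changes are depleted over control on the log2 scale, with an edgeR quasi-likelihood test over all 17573 genes tested, and a gene was called where its Benjamini-Hochberg adjusted p was under 0.05. No label states that libraries were paired, but those sharing a replicate number varied together in these data. A fit with the replicate number as a block is therefore given as the paired fit. It stands beside the fit without a block, the unpaired fit, which was the main one planned. Zfp207 RNA had 695, 1467 and 596 CPM in depleted replicates 1 to 3 and 545, 1116 and 548 CPM in controls, and since the degron acts on the protein these levels do not check its loss.

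Most genes of the m6A machinery were called in neither fit, and the 2 members that were called in the paired fit went in opposite directions. All 10 genes passed the filter on low counts, with 718 to 9819 counts per library. In the paired fit 1 member fell, Mettl16, against 7.90% of all tested genes, and 1 rose, Rbm15, against 4.96%. The unpaired edgeR fit called 0 members lower and 0 higher, against 0.780% and 0.0114% of all genes, and 1 member, Mettl16, had an unadjusted p under 0.05, as 10.9% of all genes did. DESeq2 without the block called 0 members lower and 0 higher, against 3.30% and 0.353% of all genes. DESeq2 with the block called Mettl16 lower, against 7.97% of all genes, and Rbm15 and Ythdf2 higher, against 6.47%. The median log2 fold change of the members was 0.064, beside 0.024 for all genes tested. With single members called in each direction, the shares were close to those of all genes.

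The promoters of the members called in the paired edgeR fit are shown for their sequence, and their part in the labelled RNA levels was not tested. Each runs from 250 bases before to 50 after an annotated RefSeq start in GRCm38.p6, which lies 48 bases inside the annotated interval of Mettl16 and 1171 bases inside that of Rbm15, and capitals mark a CCAAT box (CCAAT) or a GC box (GGGCGG) on either strand.
Mettl16 promoter, chr11:74770613-74770912, plus strand: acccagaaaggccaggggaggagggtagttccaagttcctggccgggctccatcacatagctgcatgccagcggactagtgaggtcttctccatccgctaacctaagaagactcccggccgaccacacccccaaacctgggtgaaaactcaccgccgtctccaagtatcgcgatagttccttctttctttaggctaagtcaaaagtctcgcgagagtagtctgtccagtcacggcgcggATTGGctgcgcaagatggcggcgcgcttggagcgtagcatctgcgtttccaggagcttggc
Rbm15 promoter, chr3:107333240-107333539, minus strand: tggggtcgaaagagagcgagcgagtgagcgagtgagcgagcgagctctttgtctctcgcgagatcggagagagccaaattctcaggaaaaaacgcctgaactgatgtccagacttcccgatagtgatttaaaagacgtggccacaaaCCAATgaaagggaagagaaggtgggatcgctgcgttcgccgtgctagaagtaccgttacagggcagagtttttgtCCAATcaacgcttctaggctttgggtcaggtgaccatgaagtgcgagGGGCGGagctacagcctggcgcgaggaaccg
The Mettl16 window is 57.7% GC with 20 CG dinucleotides, and that of Rbm15 is 54.3% GC with 23, against medians of 52.7% and 7 over 32851 promoter windows. Mettl16 has 1 CCAAT box and no GC box, whereas Rbm15 has 2 CCAAT boxes and 1 GC box. The GC box of Rbm15 lies after the annotated start, and the CCAAT boxes of both genes lie before theirs. That of Mettl16 ends within a few bases of the start. A CCAAT box is found in 37.4% of all windows and a GC box in 35.7%. Neither window holds a TATA box (TATAAA), which 13.6% of all windows do.

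Mettl16, which encodes the methyltransferase of U6 snRNA and of hairpins in the Mat2a transcript, moved most among the members. The gene lies on chromosome 11, 74770815 to 74826855 in mm10, and spans 56.0 kb. It had 166, 164 and 124 CPM in depleted replicates 1 to 3, and 199, 241 and 190 CPM in control replicates 1 to 3. Every depleted library was below every control, with the lowest value in depleted replicate 3 and the highest in control replicate 2. Groups that do not overlap in this direction were found for 11.8% of all genes. The mean was 151 ± 24.2 CPM in depleted cells and 210 ± 27.3 CPM in controls (SD, n = 3 each). Paired, the log2 fold change was -0.48 (SE 0.09, 95% interval -0.66 to -0.29, edgeR adjusted p = 0.00376), a fall of 28.1%, and the unpaired one was -0.47 (SE 0.17, edgeR adjusted p = 0.333). Within pairs the log2 differences were -0.26, -0.55 and -0.62. The paired call was kept without pair 1 (edgeR adjusted p = 0.00263) and without pair 2 (0.0217) and was lost without pair 3 (0.0503). Of all tested genes, 20.1% had a lower paired log2 fold change than Mettl16. As in any bulk sample, less labelled RNA per cell and fewer cells making it cannot be told apart.

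The ratio of Mettl16 to Mettl3 counts does not depend on how libraries are scaled. Its log2 value was 1.35, 1.39 and 0.98 in depleted replicates 1 to 3 and 1.59, 2.0 and 1.81 in controls. The depleted libraries were all below the controls, with a difference of -0.56 (exact two-sided permutation p = 0.1, the smallest that 3 against 3 libraries allow, and 0.5 after adjustment over the 5 ratios computed). The tested genes whose log2 CPM over the 6 libraries was most like that of Mettl16 were Prex2, Micu2 and Gm37216, with Pearson correlations of 0.995, 0.994 and 0.992. Prex2 encodes a guanine nucleotide exchange factor for RAC, and MICU2 is a calcium-sensing regulator of the mitochondrial uniporter. These points share their libraries and their depth, and 444 genes had a correlation above 0.9. Prex2 had 25.9, 28.6 and 15.3 CPM in depleted replicates 1 to 3 and 40.8, 56.4 and 37.1 CPM in controls.

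Rbm15 encodes an RNA-binding subunit that brings the writer complex to its target RNAs, Xist among them. It lies on chromosome 3, 107305511 to 107334460, and overlaps Slc16a4, a row with 90 counts over the 6 libraries. Its level was 273, 393 and 286 CPM in depleted replicates 1 to 3 and 224, 296 and 241 CPM in controls. The depleted library was higher in all 3 pairs, but the groups overlapped, because control replicate 2 lay above depleted replicates 1 and 3. The mean was 317 ± 65.9 CPM in depleted cells and 253 ± 37.6 CPM in controls (SD, n = 3 each). Rbm15 rose 1.24-fold in the paired fit (log2 fold change 0.31, SE 0.07, edgeR adjusted p = 0.0132), and the unpaired fit gave 0.32 (SE 0.18, edgeR adjusted p = 0.582). The paired call was held without pair 3 (edgeR adjusted p = 0.0471) and missed without pair 1 (0.0523) or pair 2 (0.0621), and also with no filter on low counts (0.0650).

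**Figure D1:**
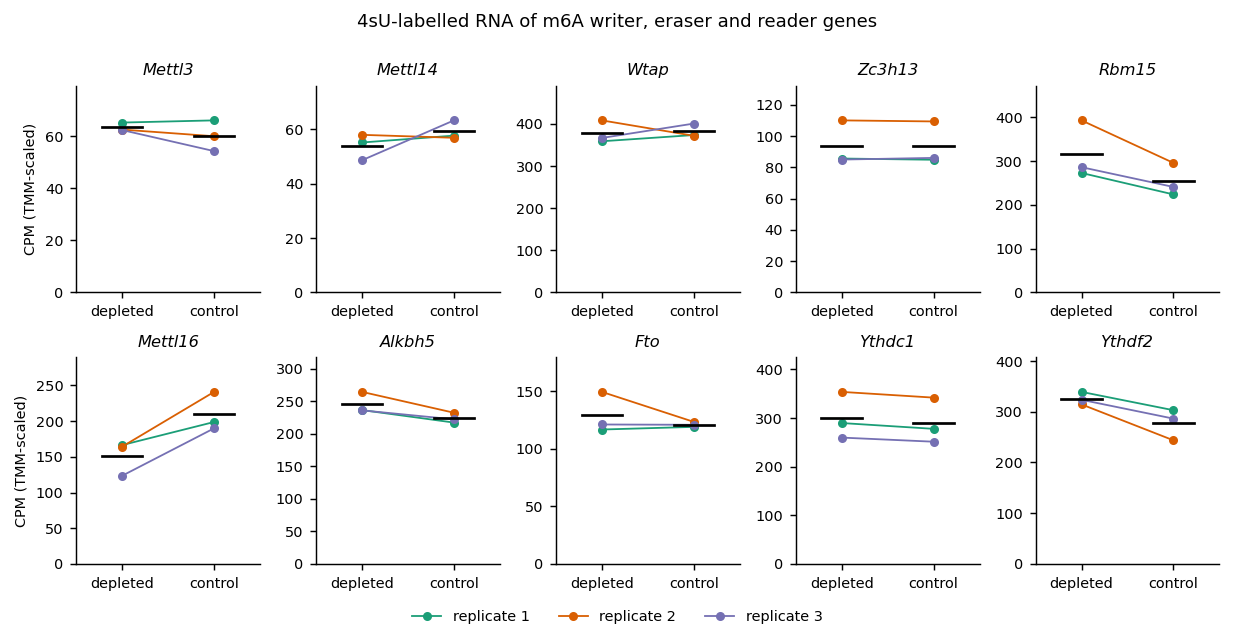
Level of each m6A gene in each library, in TMM-scaled CPM on the vertical axis, with depleted libraries on the left and controls on the right of every panel. Points are libraries, coloured lines join libraries with the same replicate number, and black bars are group means. The Mettl16 points are all lower in depleted libraries, at 124 to 166 CPM against 190 to 241 CPM in controls. All 3 lines of Rbm15, Alkbh5, Ythdc1 and Ythdf2 lie higher on the depleted side, by little for Ythdc1.

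The catalytic core of the writer was not called in either fit. Mettl3, the catalytic subunit, lies on chromosome 14, 52294841 to 52308741. It had 65.3, 62.6 and 62.4 CPM in depleted replicates 1 to 3 and 66.1, 60.0 and 54.3 CPM in controls. The depleted values all lay inside the control range (paired log2 fold change 0.08, 95% interval -0.14 to 0.30, edgeR adjusted p = 0.671). The row of Tox4, whose interval shares 669 bases with Mettl3, was not called (paired log2 fold change 0.18, edgeR adjusted p = 0.174). Mettl14, the RNA-binding partner that lacks catalytic activity of its own (chromosome 3, 123368295 to 123385990), had 55.1, 57.9 and 48.6 CPM in depleted replicates 1 to 3 and 57.7, 56.9 and 63.3 CPM in controls. The groups overlapped, and only pair 3 differed by more than 0.1 on the log2 scale, at -0.38 (paired log2 fold change -0.14, 95% interval -0.38 to 0.11, edgeR adjusted p = 0.478). The log2 ratio of Mettl14 to Mettl3 was -0.24, -0.11 and -0.36 in depleted replicates 1 to 3 and -0.20, -0.079 and 0.22 in controls. The differences within pairs were -0.05, -0.03 and -0.58, and the groups overlapped (exact two-sided permutation p = 0.2, adjusted 0.5).

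Of the writer complex genes, the adaptor genes Wtap and Zc3h13 lay close to no change. Wtap, which holds the complex in nuclear speckles, is on chromosome 17, 12966799 to 12992543. It had 359, 409 and 367 CPM in depleted replicates 1 to 3 and 374, 372 and 401 CPM in controls, with a paired log2 fold change of -0.02 (95% interval -0.18 to 0.14, edgeR adjusted p = 0.923). Zc3h13, which keeps the writer in the nucleus of mouse embryonic stem cells, lies on chromosome 14, 75284306 to 75344433. Its level was 85.6, 110 and 85.0 CPM in depleted replicates 1 to 3 and 84.8, 109 and 86.0 CPM in controls. Libraries with the same number were nearly equal, and replicate 2 was the highest in both groups. The paired log2 fold change of Zc3h13 was 0.0017 (95% interval -0.18 to 0.19, edgeR adjusted p = 0.993). The sign of both adaptors turned when single libraries were left out. The log2 ratio of Zc3h13 to Mettl3 averaged 0.55 ± 0.23 in depleted cells and 0.63 ± 0.25 in controls (SD, n = 3 each).

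Neither eraser gene was called. Alkbh5, a nuclear m6A demethylase gene on chromosome 11, 60537683 to 60558512, had 237, 265 and 236 CPM in depleted replicates 1 to 3 and 217, 232 and 222 CPM in controls. All depleted libraries lay above all controls, an arrangement that 6.94% of all genes showed, yet the difference was small (paired log2 fold change 0.13, 95% interval -0.02 to 0.29, edgeR adjusted p = 0.260). Fto encodes a demethylase that also acts on the methylated base beside the cap, and with 355 kb it is the longest member (chromosome 8, 91313367 to 91668433). It had 117, 149 and 121 CPM in depleted replicates 1 to 3 and 119, 123 and 121 CPM in controls. Depleted replicate 2 stood above the other 5 libraries, and without it the unpaired log2 fold change was -0.03, against 0.09 with all libraries (edgeR adjusted p = 0.959 and 0.880). The log2 ratio of Fto to Alkbh5 averaged -0.94 ± 0.10 in depleted cells and -0.89 ± 0.02 in controls (exact two-sided permutation p = 0.5, adjusted 0.625).

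Neither reader gene among the members was called in the paired or the unpaired edgeR fit, and for both the depleted library was higher in every pair. YTHDF2 binds m6A in the cytoplasm and recruits the CCR4-NOT deadenylase to the transcript. Ythdf2 (chromosome 4, 132184916 to 132212256) had 339, 315 and 324 CPM in depleted replicates 1 to 3 and 303, 244 and 286 CPM in controls. The groups did not overlap, with depleted libraries higher, as for 6.94% of all genes. Its paired log2 fold change of 0.24 (SE 0.07, 95% interval 0.08 to 0.40) just missed the threshold (edgeR adjusted p = 0.0549). It passed with DESeq2's size factors in the paired edgeR fit (edgeR adjusted p = 0.0341) and in DESeq2 with the block (DESeq2 adjusted p = 0.00966). It missed in the unpaired fit (edgeR adjusted p = 0.604) and in the paired edgeR fits with total counts (0.103), with no filter (0.174) and without pair 1, 2 or 3 (0.110, 0.221 and 0.124). YTHDC1 binds m6A in the nucleus, where it acts on splicing and export and, in mouse embryonic stem cells, on the silencing of retrotransposons. Ythdc1 (chromosome 5, 86803980 to 86836659) had 290, 354 and 260 CPM in depleted replicates 1 to 3 and 278, 342 and 251 CPM in controls. The depleted library was higher in each pair by 0.06, 0.05 and 0.05 on the log2 scale, and replicate 2 was the highest in both groups (paired log2 fold change 0.05, 95% interval -0.10 to 0.20, edgeR adjusted p = 0.685). The log2 ratio of Ythdf2 to Ythdc1 was 0.23, -0.17 and 0.32 in depleted replicates 1 to 3 and 0.12, -0.49 and 0.19 in controls. This ratio was higher in 3 of 3 pairs, with overlapping groups. The exact two-sided permutation p, which ignores the pairs, was 0.5 (adjusted 0.625). Exact two-sided sign flips within pairs gave p = 0.25, the smallest that 3 pairs allow.

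**Figure D2:**
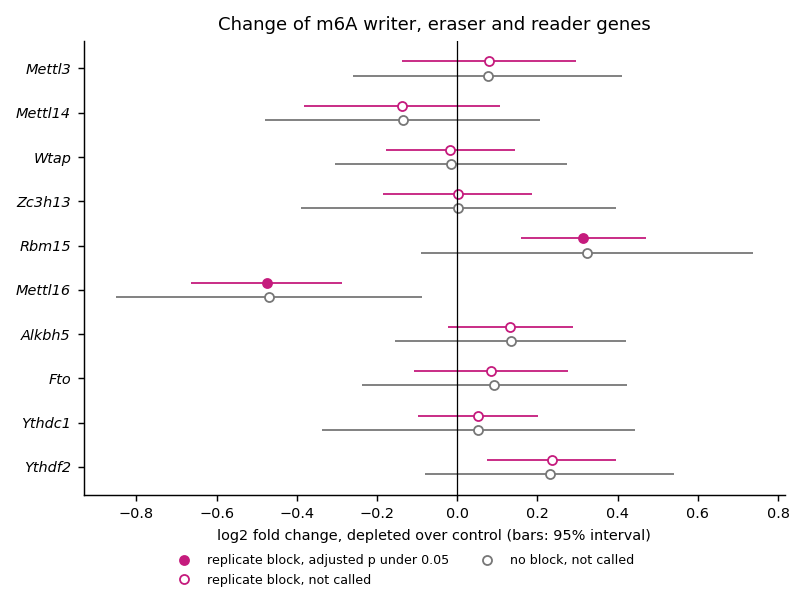
Log2 fold change of each member, depleted over control, on the horizontal axis, with 95% intervals as bars. Pink points are the paired fit, grey points the unpaired fit, and filled points have an adjusted p under 0.05. Mettl16 at -0.48 and Rbm15 at 0.31 are the filled points, and the other 8 members are open in both fits.

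Over the 10 members, the depleted library was lower in all 3 pairs for 1 gene, Mettl16, and higher in all 3 for 4, Rbm15, Alkbh5, Ythdc1 and Ythdf2. Of all genes tested, 24.5% were lower and 24.2% higher in all 3 pairs. Depleted replicate 2 was the highest of the 6 libraries for 6 members, Wtap, Zc3h13, Rbm15, Alkbh5, Fto and Ythdc1. It was neither the highest nor the lowest library for Mettl16, and for Ythdf2 the replicate 2 library was the lowest of its group in both groups. Gene length moved with the paired log2 fold change over the whole table, with medians of 0.14 for genes under 10 kb and -0.13 for those of 100 kb or more, and its part in the members' values was not tested. Of the 3 members spanning 30 to 100 kb, Mettl16, at -0.48, lay below the quartiles of its class (-0.40 to 0.14 over 3865 genes), while Zc3h13 and Ythdc1 lay within them. Fto, at 0.08, lay inside those of genes of 100 kb or more (-0.49 to 0.09 over 1738 genes). Of the 6 members of 10 to 30 kb, Rbm15 and Ythdf2, at 0.31 and 0.24, lay above the upper quartile of 0.23 over 4650 genes.

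Several other methyltransferase genes of the pathway were lower in depleted cells in the paired fit. Among 8 further writer and methyltransferase genes, 4 fell in the paired fit (Mettl5, Mettl4, Zcchc4 and Virma), 1 rose (Rbm15b) and 3 were not called (Cbll1, Trmt112 and Pcif1), where 7.90% of all tested genes fell and 4.96% rose. The unpaired fit called 1 of them, Mettl4, lower, against 0.780% of all genes. The median unpaired log2 fold change of these 8 genes was -0.25. Like the members and the lists below, these genes were chosen with earlier results of these data known. Their counts beside the shares of all genes are therefore a description and no test.

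Mettl5 encodes the m6A methyltransferase of small-subunit ribosomal RNA. It had 5.18, 8.30 and 5.21 CPM in depleted replicates 1 to 3 and 11.5, 21.4 and 17.9 CPM in controls. The groups did not overlap, with depleted libraries lower, as for 11.8% of all genes. Mettl5 fell 2.69-fold in the paired fit (log2 fold change -1.43, SE 0.21, edgeR adjusted p = 0.00111), while the unpaired fit did not call it (-1.44, edgeR adjusted p = 0.0996). DESeq2 without the block called Mettl5 lower (DESeq2 adjusted p = 0.0037). Trmt112, whose product stabilises METTL5, had 21.0, 11.5 and 22.7 CPM in depleted replicates 1 to 3 and 14.1, 12.8 and 12.4 CPM in controls, with no call (paired edgeR adjusted p = 0.202). Zcchc4, the gene for the m6A methyltransferase of large-subunit ribosomal RNA, had 37.8, 49.3 and 46.4 CPM in depleted replicates 1 to 3 and 59.4, 73.9 and 63.7 CPM in controls. Zcchc4 fell 1.48-fold with no overlap between groups, again as for 11.8% of all genes (paired edgeR adjusted p = 0.00415, unpaired 0.240). The genes of both known ribosomal RNA m6A methyltransferases were thus lower in depleted cells in the paired fit.

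Mettl4 encodes a methyltransferase known in human cells to act on U2 snRNA, the spliceosomal RNA of the branch site. Its level was 64.5, 63.2 and 60.9 CPM in depleted replicates 1 to 3 and 107, 152 and 109 CPM in controls. The depleted libraries lay close together. All were below every control, as for 11.8% of all genes. Mettl4 was the one gene of the m6A lists called in both fits, with a 1.95-fold fall in the unpaired fit (log2 fold change -0.97, SE 0.17, edgeR adjusted p = 0.0465) and a 1.93-fold fall in the paired one (edgeR adjusted p = 1.88e-04). Unpaired fits without 1 library called at most 1 gene in the whole table and did not call Mettl4 (edgeR adjusted p = 0.0950 to 0.209), whose log2 fold change was then -1.06 to -0.78. The unpaired call was also lost with DESeq2's size factors (0.0565), and the paired call held without each pair (0.000145 to 0.00465). Virma, the large scaffold subunit of the writer complex, had 71.4, 102 and 62.0 CPM in depleted replicates 1 to 3 and 106, 120 and 96.0 CPM in controls. It was lower in each pair (paired log2 fold change -0.47 with SE 0.10, edgeR adjusted p = 0.00828) and not called without pair 1 (0.0543) or pair 3 (0.0624). Rbm15b, the paralogue of Rbm15, rose 1.22-fold (paired edgeR adjusted p = 0.0427), a call that was lost without any one pair (0.110 to 0.194).

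Mat2a encodes the enzyme that makes S-adenosylmethionine, the methyl donor for all of these reactions. METTL16 is known to bind hairpins in its transcript and, when the donor is scarce, to promote splicing of its last intron. Mat2a had 616, 685 and 564 CPM in depleted replicates 1 to 3 and 494, 402 and 477 CPM in controls. Every depleted library was above every control, as for 6.94% of all genes, the opposite arrangement to Mettl16. Mat2a spans 6.76 kb and Mettl16 56.0 kb. Medians of the paired log2 fold change were 0.14 for genes under 10 kb and -0.07 for those of 30 to 100 kb. The part of length in these 2 genes' values, and any link between them, was not tested. Mat2a rose 1.36-fold in the paired fit (log2 fold change 0.44, SE 0.09, edgeR adjusted p = 0.00846), and the unpaired fit gave 0.44 (SE 0.15, edgeR adjusted p = 0.277). Pair 2 had the largest difference, and without it the paired log2 fold change was 0.28 (edgeR adjusted p = 0.0461), while with no filter on low counts Mat2a was not called (0.0674). The table gives 1 value a gene, so retained and spliced Mat2a introns were not separated. In the same list of 6 genes, Upf1, the helicase of nonsense-mediated decay, rose 1.23-fold (paired edgeR adjusted p = 0.0148, lost without pair 1 or 3, at 0.0514 and 0.0996). Rida, also named HRSP12, links YTHDF2 to RNase P and MRP in human cells. It fell 2.23-fold, to 5.49, 5.84 and 3.86 CPM in depleted replicates 1 to 3, against 11.2, 11.3 and 11.3 CPM in controls (paired edgeR adjusted p = 0.00875, unpaired 0.121, and 0.0765 in the paired fit without pair 3). DESeq2 without the block called Rida lower (DESeq2 adjusted p = 0.00824). Mat2b, Ahcy and Cnot1 were not called.

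**Figure D3:**
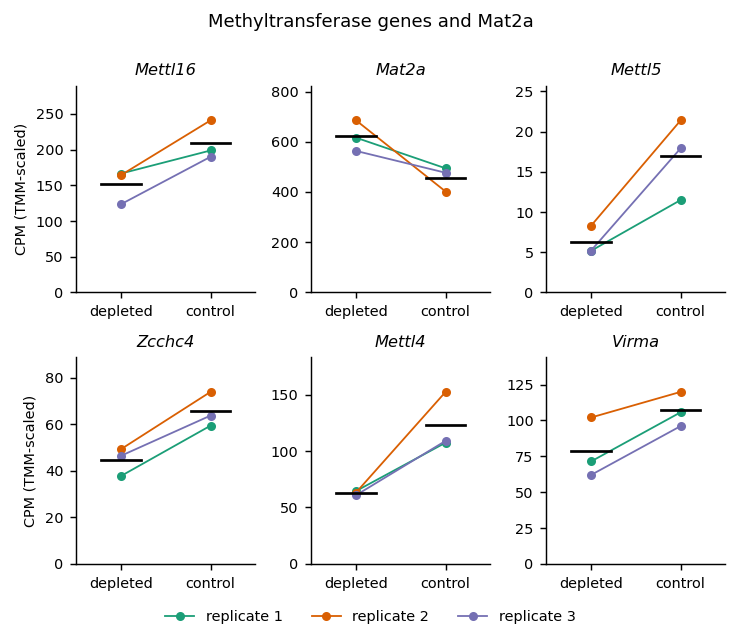
TMM-scaled CPM of Mettl16, Mat2a, Mettl5, Zcchc4, Mettl4 and Virma by library, with depleted libraries on the left of each panel and controls on the right. Points are libraries, lines join the same replicate number and black bars are group means. Mat2a is higher in all depleted libraries (564 to 685 CPM, against 402 to 494 CPM in controls), and all lines of the other 5 genes lie lower on the depleted side.

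Among 12 further readers and proposed readers, 4 rose and 1 fell in the paired fit, against 4.96% and 7.90% of all tested genes, and 7 were not called. The unpaired edgeR fit called 0 (0 at an unadjusted p under 0.05, and 0 in DESeq2 without the block). Rbmx, an RNA-binding protein gene whose product binds transcripts opened by m6A, had 53.7, 84.0 and 51.2 CPM in depleted replicates 1 to 3 and 35.1, 59.5 and 38.4 CPM in controls. It was higher in each pair and rose 1.43-fold (paired edgeR adjusted p = 0.00802). Prrc2a, a proposed reader, had 564, 472 and 576 CPM in depleted replicates 1 to 3 and 455, 371 and 456 CPM in controls. Its groups did not overlap, as for 6.94% of all genes in this direction (1.26-fold, paired edgeR adjusted p = 0.00640, and 0.0532 without pair 3). Ythdf3, a cytoplasmic reader related to Ythdf2, rose 1.22-fold (paired edgeR adjusted p = 0.0200) and Hnrnpa2b1, a nuclear hnRNP proposed to read m6A, 1.16-fold (0.0496). Fmr1, which encodes the translational regulator FMRP, fell 1.24-fold (paired edgeR adjusted p = 0.0266). The calls of Ythdf3, Hnrnpa2b1 and Fmr1 were each lost without any one pair. The YTH family genes Ythdf1 and Ythdc2 had paired log2 fold changes of 0.17 and -0.28 and were not called (edgeR adjusted p = 0.15 and 0.173).

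**Figure D4:**
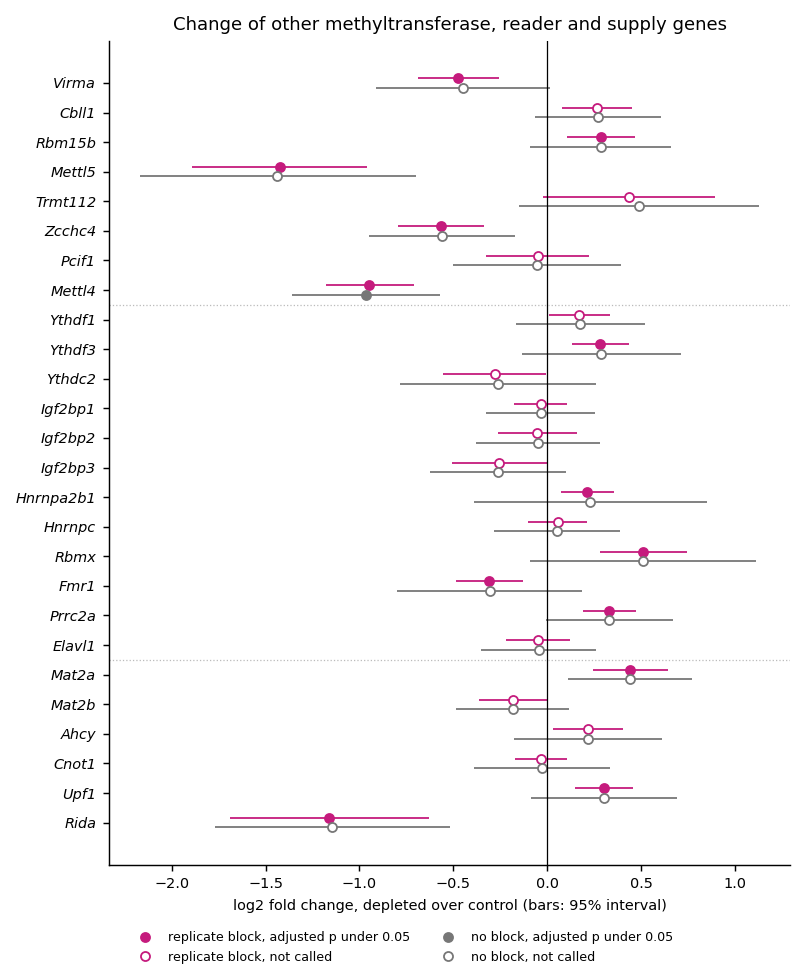
Log2 fold change, depleted over control, of 26 other genes of the pathway with 95% intervals, in the paired fit (pink) and the unpaired fit (grey). Dotted lines divide other writers, other readers, and donor supply and decay genes, and filled points have an adjusted p under 0.05. Mettl5, Rida and Mettl4 lie farthest below 0, and Rbmx and Mat2a are the highest of the filled points.

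Counting these 26 genes together, 6 fell and 7 rose in the paired fit, against 7.90% and 4.96% of all tested genes. Of those that rose, Rbm15b, Rbmx, Hnrnpa2b1 and Mat2a span less than 10 kb, and Ythdf3, Prrc2a and Upf1 more. Those that fell all span more than 10 kb, and the part of length was not tested. Of the 13 called genes, 5 (Mettl5, Zcchc4, Mettl4, Rbmx and Mat2a) stayed called when any one pair was left out. The share of all called genes that did so was not computed, so this count has no background beside it. With no filter on low counts the paired fit lost Mat2a, as given above, and also Upf1 (edgeR adjusted p = 0.0624), Fmr1 (0.0785), Ythdf3 (0.0793), Rbm15b (0.109) and Hnrnpa2b1 (0.165). Annotated neighbours overlap several of them. Ssb shares 652 bases with Mettl5 and was not called (paired log2 fold change 0.01, edgeR adjusted p = 0.969), and Ggcx shares 564 bases with Mat2a and was not called (0.14, edgeR adjusted p = 0.759). The lncRNA gene Particl shares 874 bases with Mat2a and was not tested. It had 50, 16 and 5 counts in depleted replicates 1 to 3 and 6, 5 and 5 in controls. The interval of Mettl4 overlaps 2700099C18Rik by 115 bases (paired log2 fold change -0.18, edgeR adjusted p = 0.537).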

How the data were processed

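The authors deposited 1 table of estimated counts per gene, as whole numbers, for 6 libraries. HISAT2 2.2.1, StringTie 2.2.1, DESeq2 1.42.0 and mm10 are named without roles, per the submitters' processing notes. No label states strand, so reads of overlapping genes cannot be told apart.

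The counts went into edgeR 4.0.16 (R 4.3.3): filterByExpr kept 17573 genes, TMM scaled the libraries, and robust quasi-likelihood tests without a block were adjusted over all genes by Benjamini-Hochberg. SE is the fold change over the root of its F. DESeq2 1.42.0, other scalings, no filter and omitted libraries were alternatives. On simulated counts with a pair effect, both fits returned the fold changes put in, but the unpaired edgeR fit called none of the changed genes and the paired fit called only part of them. That pair effect was put in, and the spread came from a paired fit. The simulation therefore does not show which fit suits these data.

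Deviations from group means in log2 CPM correlated at 0.268, 0.387 and 0.321 between libraries sharing a replicate number and at -0.265 to -0.025 otherwise, and libraries were treated as paired by number. The pairing was thus read from these data. Deviations within a group sum to 0, so positive values for shared numbers draw the others below 0. No label says whether replicates were separate cultures, and p-values then measure only the spread among these samples. Ratios used counts plus 0.5. Coordinates and promoter windows (for 9 of the 10 members) are RefSeq's for GRCm38.p6, the assembly mm10 names. Levels were not compared between genes, as exon lengths were not used here.

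Members and gene lists were chosen with earlier results of these data known. The text names the 10 members, pathway genes called in either fit, some of the overlapping genes, the 3 genes most like the member with the smallest paired p, and Zfp207. Trmt112, Ythdf1, Ythdc2, Mat2b, Ahcy, Cnot1, Cbll1 and Pcif1 were added after their values were seen.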

Additional observations from a re-analysis of the deposited data

How the results depend on the processing

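The replicate block decided most calls. Members called were 0 lower and 0 higher without it and 1 and 1 with it, and other pathway genes called were 1 and 0 without it and 6 and 7 with it. Over all 17573 genes tested, the calls were 137 lower and 2 higher without it and 1388 and 871 with it. With the block and 1 pair left out, 0 to 1 members were lower and 0 to 1 higher, and 3 to 5 pathway genes were lower and 2 to 5 higher. Of the 17467 to 18022 genes tested in those fits, 699 to 1016 were lower and 250 to 491 higher. Added after seeing the data, 4 further settings with the block each called 1 member lower. Members higher, pathway genes lower and pathway genes higher were 2, 6 and 8 in DESeq2 and also with DESeq2 size factors in edgeR, 0, 5 and 2 with no filter, and 1, 6 and 5 with total counts. Of all 17573 genes tested, 1401 were lower and 1137 higher in DESeq2, and 1358 and 1080 with DESeq2 size factors. These whole-table counts were 1746 and 579 with total counts, and 848 and 280 of 28309 with no filter. Without the block, pathway genes lower were 3 in DESeq2 (Mettl5, Mettl4 and Rida), where 579 of all genes tested were lower. With DESeq2 size factors in edgeR, again without the block, 0 pathway genes and 124 of all 17573 genes were lower. Pathway genes lower without the block were also 0 without replicate 2 in both groups (added after seeing the data) and 0 without any single library. Those fits with libraries left out called 0 or 1 genes in the whole table, so their counts of 0 say nothing about these genes.

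The median of the members was 0.00415 with total counts (0.00578 with the block), where the median of all genes was -0.037, and ran from -0.049 without depleted replicate 2 to 0.119 without control replicate 2. Over the unpaired fits without 1 library, these signs turned: Wtap ran from -0.0737 to 0.0223, Zc3h13 from -0.129 to 0.131, Fto from -0.025 to 0.162, Ythdc1 from -0.0782 to 0.187, Hnrnpa2b1 from -0.0952 to 0.499 and Zfp207 from -0.188 to 0.752, the last 2 turning without depleted replicate 2. The log2 ratio of Zc3h13 to Mettl3 ran from -0.214 to 0.0387 and that of Ythdf2 to Ythdc1 from -0.0323 to 0.33. In the block, Wtap was 0.00302 without pair 1 and 0.0235 without pair 3, Zc3h13 was -0.00496, -0.00285 and -0.00388 without pairs 1, 2 and 3, and Fto was -0.0136 without pair 2. With total counts, Zc3h13 was -0.0595 and Ythdc1 -0.00979, and with the block added -0.0586 and -0.00754. Without replicate 2 in both groups, Zc3h13 was -0.00301 and Fto -0.0133. The causes were not tested.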
